A study of Mus musculus with 17 samples.

Results

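The genes described here are 8 members of the oncostatin M and interleukin-6 receptor route to STAT3. They are the receptor chains Osmr, Lifr and Il6st, the transcription factor Stat3, its feedback inhibitor Socs3, and Cd44, Lcn2 and Serpina3n, which are known STAT3-responsive genes of reactive glia. They were taken by gene symbol from 36271 genes listed in at least 1 of 4 count tables. All 8 had a row in each table and passed the low-count filter in each neuron comparison. Lcn2 passed it in each neuron table only through the groups where it was higher. The route was picked because Osmr, Socs3 and Cd44 stood out with ADM, that is, they were chosen by their fold changes in the ADM comparison, so its values are given as a description and without a test.

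The libraries were made from C57BL/6 mice: 14 from primary neurons of the brain in 7 groups of 2, and 3 from hippocampus with 1 library per group. The neuron groups are an ADM treatment with its control, a first set with an ApoE particle treatment and its control (set 1), and a further 3 groups given control, ApoE particle or ApoE reconstituted particle treatment (set 2). The hippocampus libraries are from control shRNA mice without FC, control shRNA mice with FC, and ApoE shRNA mice with FC. The labels give no dose, time, age, shRNA vector or source of the particles, do not spell out ADM or FC, and do not tell if paired libraries are separate cultures, so each p-value measures only the spread between those libraries, which may be technical.

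Interleukin-6 family cytokines bind a specific chain that pairs with gp130, the protein made from Il6st. Oncostatin M signals in the mouse through the chain made from Osmr, and leukemia inhibitory factor through the chain made from Lifr. Janus kinases on the paired chains phosphorylate STAT3, which then moves to the nucleus and switches on genes that include Socs3, whose protein blocks gp130 and its kinases. In brain this route is known from astrocytes responding to injury and inflammation, where Cd44 (a hyaluronan and osteopontin receptor), Lcn2 (lipocalin 2, an iron-siderophore carrier) and Serpina3n (a secreted serine protease inhibitor) are induced.

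Library totals ran from 14.62 to 19.14 M counts. Neuron markers (Rbfox3, Tubb3, Snap25 and 8 others) were detected in all neuron libraries, with a summed level of 5243 to 7504 CPM, where CPM is the count scaled to 1 M counts per library. Astrocyte markers (Gfap among them) were detected too, at 705 to 4667 CPM, so the neuron cultures were mixed. In such bulk libraries, fewer cells of a type and less RNA per cell cannot be told apart. The ADM libraries were the least alike: replicate 2 held 1216 CPM of vessel and fibroblast markers against 69.3 CPM in replicate 1, and their controls held 72.8 and 23.0 CPM.

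The start regions of the 8 members were searched for the motif that STAT proteins bind, and the 3 that held it are shown. They were picked for their match, so their number is a description only. The letters searched were TTCNNNGAA and the spaced form TTCNNNNGAA, which read the same on both strands, in 300 bases per gene (250 before to 50 after the RefSeq start, build GRCm38.p6). Socs3 and Cd44 are shown with the 250 bases before their start, and Lcn2 with a 30-base window around its match, each 5′ to 3′ on the strand of the gene, with the motif in capitals.

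Socs3, chr11:117969367-117969616, minus strand: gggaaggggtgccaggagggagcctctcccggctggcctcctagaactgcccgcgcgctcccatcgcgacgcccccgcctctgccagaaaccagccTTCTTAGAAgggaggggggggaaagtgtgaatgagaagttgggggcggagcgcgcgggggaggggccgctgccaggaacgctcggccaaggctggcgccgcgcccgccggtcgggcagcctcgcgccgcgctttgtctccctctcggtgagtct
Cd44, chr2:102901666-102901915, minus strand: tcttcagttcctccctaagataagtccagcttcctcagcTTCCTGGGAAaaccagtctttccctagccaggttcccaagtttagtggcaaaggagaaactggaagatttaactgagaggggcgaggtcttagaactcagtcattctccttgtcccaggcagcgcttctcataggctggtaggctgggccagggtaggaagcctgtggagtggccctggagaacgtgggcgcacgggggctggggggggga
Lcn2, chr2:32387876-32387905, minus strand: tgccaagtatTTCAACAGAAtgtactggca

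The Socs3 match began 154 bases before the RefSeq start, the Cd44 match 211 bases and the Lcn2 match 156 bases. The mm10 gene models used for exon lengths run from 117966079 to 117970047 for Socs3 and from 32384633 to 32388252 for Lcn2. By those models the Socs3 and Lcn2 stretches shown lie inside the gene. Among 32851 RefSeq start regions of the same length, 8.3% held the shorter form, 6.95% the spaced form and 14.6% either. No match lay in the windows of Osmr, Lifr, Il6st, Stat3 and Serpina3n, which says only that these letters are not in those windows. A match is a description of letters, not a site that was measured. In mm10, Osmr (chromosome 15, 6813577 to 6874969, minus strand) and Lifr (chromosome 15, 7090614 to 7197489, plus strand) are neighbours with 215.6 kb between them, and Il6st lies on chromosome 13 (112464070 to 112510086, plus strand). Stat3 (chromosome 11, 100885098 to 100939540, minus strand) shares exon bases with Stat5a on the opposite strand, and since the strand setting of the counting is not given in the sources used here, reads from the shared bases cannot be told apart.

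With ADM, the levels of 7 of the 8 genes were higher in both treated libraries than in either control library, and Il6st overlapped. Over all 16191 genes tested, 23.2% were higher without overlap and 16.7% lower, and nothing is read from the members' count because this comparison chose them. The median log2 fold change was 2.66 over the 8 genes and 0.02 over all genes. In edgeR's quasi-likelihood test no gene of the table passed an adjusted p of 0.05 (0 of 16191, or 0%), while 1426 had an unadjusted p below 0.05 and DESeq2 called 333.

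Among the receptors, Osmr stood at 3.45 and 5.22 CPM in the ADM controls and at 30.6 and 37.5 CPM with ADM, a log2 fold change of 2.95 ± 0.30 (standard error, n = 2 per group). Lifr stood at 41.6 and 41.3 CPM in the controls and at 69.0 and 69.3 CPM with ADM, a log2 difference of 0.72 ± 0.13. For Il6st the controls had 47.9 and 83.1 CPM and the ADM libraries 82.5 and 141 CPM. The Il6st ranges meet, with the lower ADM library just under the higher control. Stat3 itself was at 43.0 and 65.5 CPM in the controls and at 205 and 197 CPM with ADM (log2 1.87 ± 0.23). Its inhibitor Socs3 was at 5.24 and 4.65 CPM without and at 28.2 and 23.7 CPM with ADM (log2 2.37 ± 0.23). Both pairs of libraries lay well apart for these genes.

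Of the STAT3-responsive genes, Cd44 was even between the treated libraries and the other two were not. Cd44 had 7.14 and 12.5 CPM in the controls and 111 and 108 CPM with ADM, a log2 fold change of 3.45 ± 0.31. Lcn2 had 0 and 7 counts in the controls and 4200 and 63 counts with ADM, which are 287 and 3.77 CPM. Nearly all Lcn2 reads thus came from ADM replicate 1. Serpina3n had 2.02 and 10.2 CPM in the controls and 211 and 50.1 CPM with ADM (log2 4.37 ± 1.07), again with replicate 1 on top. Leaving out ADM replicate 1 took the Serpina3n value to 3.01 and leaving out control replicate 2 took it to 5.96, and the Il6st value ran from 0.28 without ADM replicate 2 to 1.20 without control replicate 2. For Lcn2 the fitted value was 4.24 without ADM replicate 1 and 14.16 without control replicate 2. With control replicate 2 left out, the remaining control had no Lcn2 count, so that last value depends on the prior count of the fit.

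**Figure D1:**
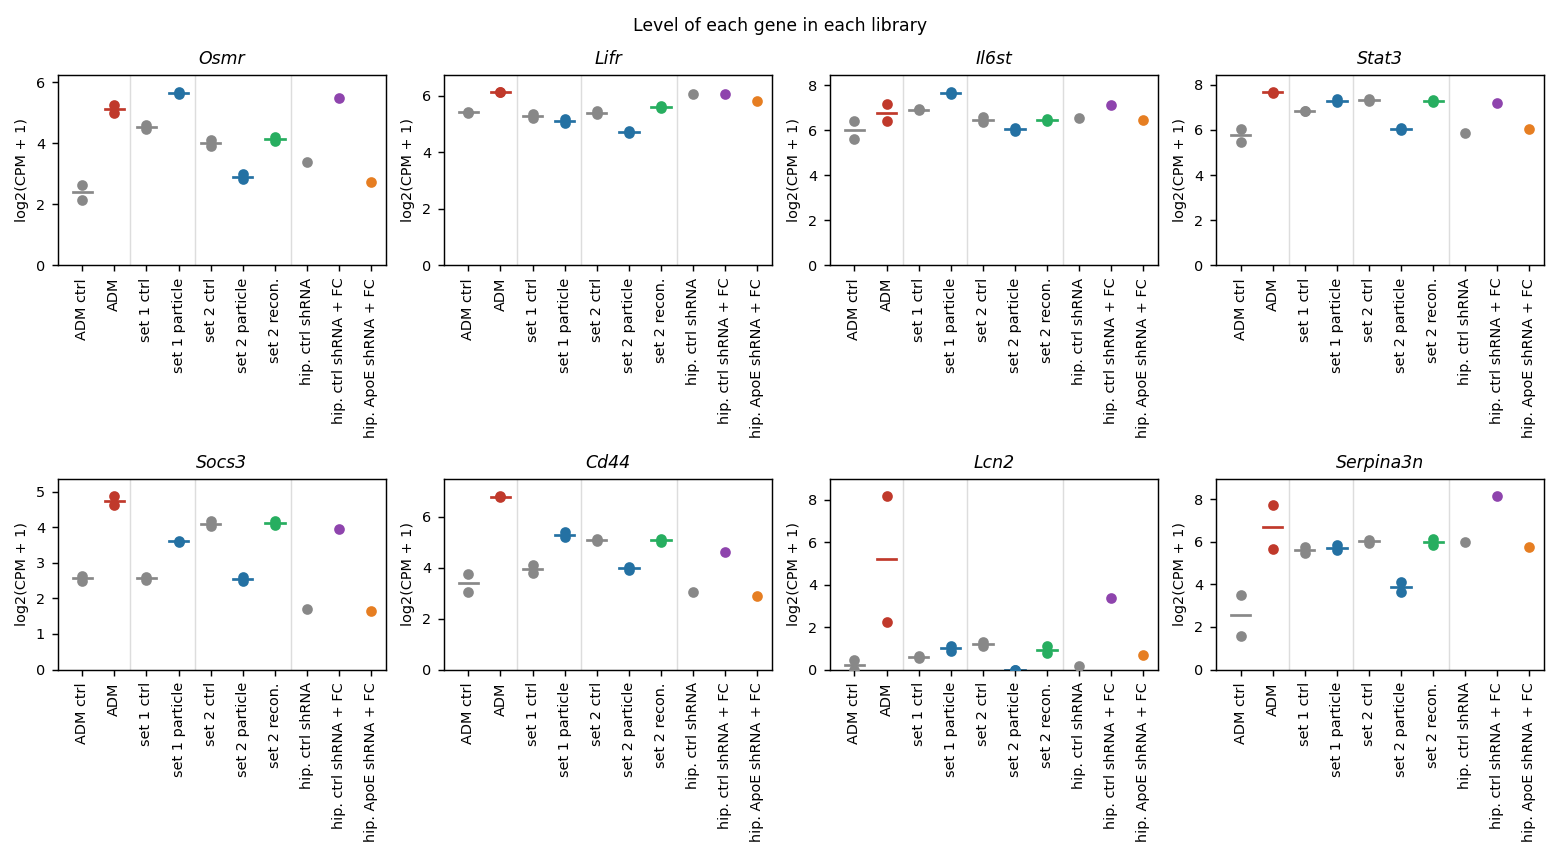
Level of each of the 8 genes in each of the 17 libraries, as log2(CPM + 1), by group (grey, controls; red, ADM; blue, ApoE particle; green, reconstituted particle; purple and orange, hippocampus with FC under control and ApoE shRNA); points are libraries and short lines the mean of 2. The set 2 ApoE particle libraries lie below their controls in all panels, and the set 1 ApoE particle libraries lie above theirs for Osmr, Il6st, Stat3, Socs3, Cd44 and, at low counts, Lcn2.

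Other genes of the route in the ADM table were read from lists, members left out. Of 5 ligand genes tested, 4 were higher without overlap and 0 lower, among them Lif (leukemia inhibitory factor), at 1.21 ± 0.20 CPM (SD, n = 2) in the controls and 15.4 ± 5.3 CPM with ADM, and Clcf1, at 1.35 ± 0.28 and 8.91 ± 1.77 CPM. Osm, which encodes oncostatin M, had 0 to 2 counts in each of the 4 libraries, and Il6 had 0 and 2 counts in the controls and 47 and 1 with ADM. Of 10 kinases and STATs, 7 were higher and 0 lower. Of 17 STAT3-induced genes 11 were higher and 1 lower, and of 9 reactive astrocyte genes 8 were higher and 0 lower. Timp1, an inhibitor of matrix proteases that is on both lists, was at 0.782 ± 0.072 CPM without and 24.7 ± 0.4 CPM with ADM. Among 13 inhibitors 4 were higher and 2 lower. In these lists Il11, Stat5a, Cebpb, Steap4, Hspb1 and Aspg passed the low-count filter only through the ADM libraries. They could not have been counted as lower, so their places in these counts are not read as support. Summed astrocyte markers overlapped between the groups, at 705 and 1378 CPM in the controls and 1095 and 1277 CPM with ADM, and so did microglia markers, at 15.5 and 52.8 against 19.6 and 44.6 CPM. The sums of vessel and fibroblast markers overlapped as well (23.0 and 72.8 against 69.3 and 1216 CPM), while 7 of the 9 genes tested were higher without overlap and 0 lower. Of those 7, Pecam1, Flt1, Col3a1 and Lum passed the low-count filter only through the ADM libraries, so they could not have been counted as lower. Neuron markers did not overlap, at 6616 and 7504 CPM in the controls against 5755 and 6195 CPM with ADM, with 3 of 11 genes lower and 1 higher without overlap. The part of these cells in the members' values was not tested.

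In set 1, the ApoE particle libraries had more transcript of 5 of the 8 genes and less of 1. Osmr, Il6st, Stat3, Socs3 and Cd44 rose, Lifr fell, and Lcn2 and Serpina3n did not pass the test. The particle treatment moved 36.4% of all 16475 genes tested, 18.9% upward and 17.4% downward, at an adjusted p below 0.05 (edgeR, Benjamini-Hochberg over all genes). The members' median log2 fold change was 0.75 and that of all genes -0.01.

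Osmr went from 23.4 and 21.0 CPM in the set 1 controls to 47.8 and 50.4 CPM with the ApoE particle, a log2 fold change of 1.04 ± 0.10 (edgeR adjusted p = 2.45e-05). Il6st went from 118 and 120 CPM to 195 and 207 CPM (log2 0.64 ± 0.09, edgeR adjusted p = 0.000184). Lifr had 39.9 and 36.3 CPM in the controls and 35.0 and 31.5 CPM with the particle, and its fall of -0.30 ± 0.11 passed narrowly (edgeR adjusted p = 0.0462). The Lifr call was lost with DESeq2 (adjusted p = 0.14), with scaling by library totals only (0.193) and without control replicate 1 (0.0586), particle replicate 1 (0.11) or particle replicate 2 (0.46). Osmr and Il6st thus rose, while Lifr, the neighbour of Osmr on chromosome 15, had a small fall whose call was lost in those refits, at log2 values of -0.20 to -0.39.

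Stat3 went from 113 and 112 CPM to 151 and 163 CPM in set 1, a log2 change of 0.38 ± 0.09 (edgeR adjusted p = 0.00507). Without particle replicate 2 the adjusted p of Stat3 was 0.15. Socs3 went from 4.74 and 5.09 CPM to 11 and 11.3 CPM (log2 1.08 ± 0.18, edgeR adjusted p = 0.000674). The inhibitor's libraries did not overlap and its replicates were close. Cd44 went from 16.2 and 12.9 CPM to 35.8 and 40.9 CPM (log2 1.30 ± 0.13, edgeR adjusted p = 2.88e-05), the largest change among the members that passed. Lcn2 had 9 and 8 counts in the controls and 13 and 20 with the particle (log2 0.86 ± 0.48, edgeR adjusted p = 0.189). Serpina3n was at 52.7 and 43.6 CPM without and 56.0 and 47.3 CPM with the particle, a difference of 0.00 ± 0.12 (edgeR adjusted p = 0.998). Its library ranges overlapped.

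**Figure D2:**
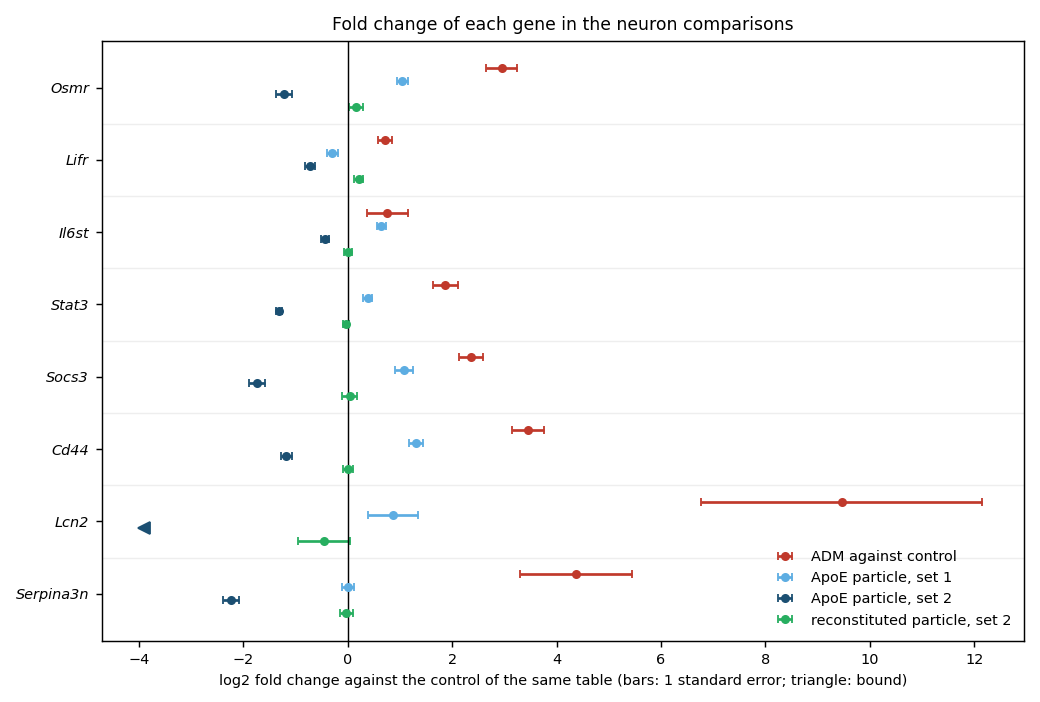
Log2 fold change of each gene against the control of the same table in 4 neuron comparisons; points are edgeR estimates from 2 libraries per group, bars 1 standard error, and the triangle for Lcn2 is the bound that 0 counts allow in the set 2 ApoE particle libraries. Osmr reads 2.95 with ADM, 1.04 with the ApoE particle of set 1, -1.22 with that of set 2 and 0.15 with the reconstituted particle.

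Around these genes in set 1, members left out, 3 of 4 receptors rose and 1 fell, 5 of 10 kinases and STATs rose and 1 fell, 8 of 17 STAT3-induced genes rose and 2 fell, and 7 of 9 reactive astrocyte genes rose and 0 fell. In these lists Il31ra, Stat5a, Hspb1 and Timp1, and Ptpn6 among the inhibitors below, passed the low-count filter only through the particle libraries. A fall was not open to them, so their places in the counts are not read as support. Without particle replicate 2, 2 kinases and STATs rose and 0 fell, 1 of the STAT3-induced genes fell and 0 receptors fell. Of the ligands, 2 of 4 rose, or 1 without control replicate 2 or particle replicate 2. Il6ra, the specific chain for interleukin-6, went from 3.19 ± 0.68 to 8.64 ± 0.58 CPM (log2 1.34 ± 0.22, edgeR adjusted p = 0.000617), and Il11ra1, the interleukin-11 chain, from 12.2 ± 0.9 to 22.9 ± 2.4 CPM (log2 0.81 ± 0.14, edgeR adjusted p = 0.000878). Lif, at 1.60 ± 0.59 CPM in the controls and 4.58 ± 0.38 CPM with the particle, was 1 of the 2 ligands that rose (log2 1.42 ± 0.30, edgeR adjusted p = 0.00339). Among the inhibitors Socs2, a brake on growth hormone signalling, fell by 0.68 ± 0.09 on the log2 scale while Socs4 rose by 0.63 ± 0.11 (edgeR adjusted p = 0.000151 and 0.00105), and 2 of 13 rose and 2 fell (1 fell when either particle library was left out, and 5 without control replicate 1). Vim, an intermediate filament of astrocytes and other non-neuronal cells, went from 448 ± 119 to 1549 ± 111 CPM, and of the CD44 ligands and partners 5 of 7 rose and 0 fell, with the lowest adjusted p for Msn (moesin, log2 1.56 ± 0.10, edgeR adjusted p = 2.34e-06) and Spp1 (osteopontin, log2 1.79 ± 0.13, edgeR adjusted p = 3.31e-06).

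Marker genes of other cells moved in the same libraries. In set 1 the summed astrocyte markers were 3347 and 3013 CPM in the controls and 4667 and 4513 CPM with the particle, with 8 of 10 genes risen and 1 fallen. Microglia markers went from 101 and 87.0 CPM to 340 and 335 CPM (9 of 10 rose), vessel and fibroblast markers from 88.3 and 67.3 CPM to 295 and 325 CPM (5 of 9 rose, 1 fell), markers of dividing cells from 124 and 110 CPM to 446 and 537 CPM (6 of 6 rose), and neuron markers from 7070 and 7261 CPM to 5420 and 5243 CPM (10 of 11 fell). Of these microglia genes Tmem119 was at 0 in 1 control library. For P2ry12, Tmem119, Itgam and Aif1 the control libraries alone did not meet the low-count filter. Any of them that was tested passed it only through the particle libraries, so a fall was not open to it. The part of these cells in the members' changes was not tested.

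In set 2 all 8 genes fell with the ApoE particle, though Lcn2 passed the low-count filter only through the groups where it was higher. Across the 16388 genes tested in set 2, 22.1% passed, 12.1% as falls and 10% as rises. The members' median log2 fold change was -1.26, and it was the same with Lcn2 set at its bound, beside 0.00 for all genes. Each fall passed in every refit that left out 1 library (8 of 8 genes called each time).

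Osmr was at 16.3 and 14 CPM in the set 2 controls and at 6.13 and 6.92 CPM with the ApoE particle, a log2 fold change of -1.22 ± 0.15 (edgeR adjusted p = 2.3e-06). Lifr was at 39.4 and 43.5 CPM and fell to 24.6 and 25.8 CPM (-0.72 ± 0.09, edgeR adjusted p = 2.29e-06). Il6st was at 93.6 and 80.8 CPM and fell to 61.8 and 67.9 CPM (-0.43 ± 0.07, edgeR adjusted p = 0.000104). The shared chain moved least of the receptors, and none of the library ranges met. Stat3 dropped from 165 and 157 CPM to 62.5 and 67.4 CPM (-1.31 ± 0.06, edgeR adjusted p = 3.17e-14), and Socs3 from 16.9 and 15.4 CPM to 4.66 and 5.0 CPM (-1.74 ± 0.16, edgeR adjusted p = 8.97e-09). The factor and its inhibitor were both low in the same libraries.

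Cd44 dropped from 33.9 and 32.4 CPM to 14.1 and 15.3 CPM (-1.18 ± 0.10, edgeR adjusted p = 8.02e-09). Serpina3n dropped from 61.6 and 67.9 CPM to 11.3 and 16.1 CPM (-2.24 ± 0.15, edgeR adjusted p = 3.42e-06). Lcn2 had 20 and 25 counts in the controls and 0 and 0 with the particle. Against a floor of 3 counts over the group, Lcn2 was at least 15-fold lower. Since the filter let Lcn2 in only through its higher groups, its call is not read as support. Serpina3n belongs to a cluster of related genes, and whether the counting split reads between them was not tested. Of that cluster Serpina3f and Serpina3i also passed as falls. They were at 1.35 ± 0.11 and 0.776 ± 0.050 CPM in the controls and 0.0576 ± 0.0019 and 0.0562 ± 0.0795 CPM with the particle. These levels are low, and both genes passed the low-count filter only through groups where they were higher. Their calls are therefore not read as support. The Serpina3i call was lost without particle replicate 1 (edgeR adjusted p = 0.0933), and DESeq2 gave neither gene an adjusted p.

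With the members left out, 6 of 9 reactive astrocyte genes fell and 0 rose in set 2, with Gfap, the intermediate filament of astrocytes, at 327 ± 9 CPM in the controls and 109 ± 14 CPM with the particle (log2 -1.59 ± 0.06, edgeR adjusted p = 1.04e-12). Of 17 STAT3-induced genes 6 fell and 3 rose, but the rises numbered 1 with DESeq2, with the replicate block and without control replicate 1, and 0 without particle replicate 1. Cebpd, a transcription factor of the acute phase, went from 12 ± 1.5 to 4.36 ± 0.67 CPM (-1.46 ± 0.20, edgeR adjusted p = 7.24e-06). Of 10 kinases and STATs 3 fell and 1 rose, and Stat2, a factor of the interferon response, went from 151 ± 4 to 25.5 ± 1.4 CPM (-2.56 ± 0.07, edgeR adjusted p = 1.09e-18). None of the 3 other receptors and none of the 3 ligands tested passed in either direction in set 2. Il6 had 1 and 3 counts in the controls and 0 in the 4 libraries of the other groups.

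The astrocyte markers of set 2, with Gfap included, summed to 1722 and 1604 CPM in the controls and 1100 and 1222 CPM with the particle. Of these markers 8 of 10 fell and 1 rose, with a median log2 fold change of -0.35. Vessel and fibroblast markers summed to 200 and 126 CPM in the controls and to 45.7 and 78.0 CPM with the particle, and 5 of 8 fell. Microglia markers were near the detection limit in both groups, at 12.9 and 11.1 against 11.1 and 9.67 CPM over 9 genes, with C1qa at 0 in 1 control library and in both particle libraries. Markers of dividing cells went from 179 and 145 CPM to 98.3 and 109 CPM (5 of 6 fell), and neuron markers from 6578 and 6593 CPM to 6159 and 6304 CPM (4 of 11 fell, 1 rose). The part of these cells in the members' falls was not tested.

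**Figure D3:**
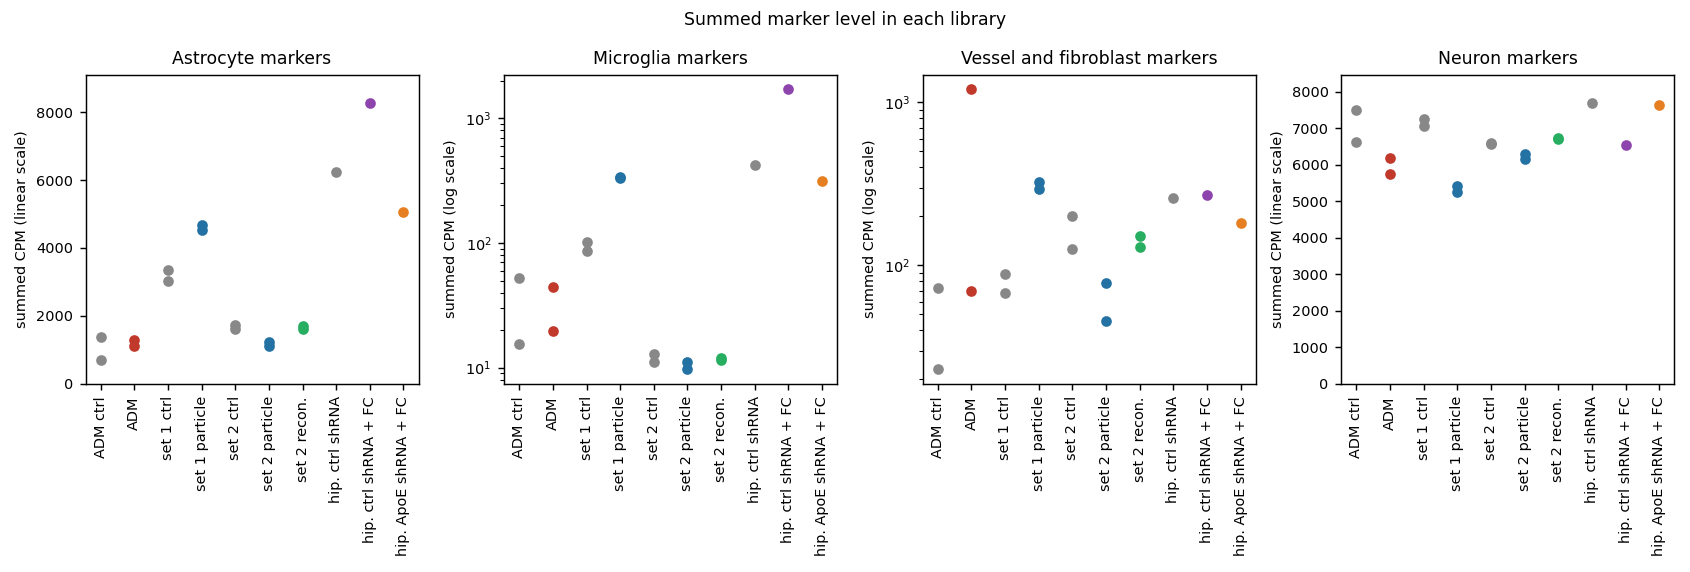
Summed CPM of astrocyte and neuron markers (linear axes) and of microglia and vessel and fibroblast markers (log axes) in each of the 17 libraries, coloured as in the plot of member levels. Set 1 particle libraries lie above their controls for astrocyte, microglia and vessel markers, and set 2 particle libraries lie below theirs for astrocyte and vessel markers.

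The reconstituted ApoE particle left the 8 genes near their set 2 control levels. None passed the test, as was so for all 16388 genes (0%, with 776 at an unadjusted p below 0.05 in edgeR, and DESeq2 calling 0 genes with 258 at an unadjusted p below 0.05). Osmr was at 17.5 and 15.9 CPM, a log2 difference from control of 0.15 ± 0.14 with a 95% interval of -0.12 to 0.43. For Socs3, at 17 and 15.7 CPM, the interval ran from -0.23 to 0.30, for Cd44, at 31.2 and 34.2 CPM, from -0.19 to 0.19, and for Stat3, at 151 and 158 CPM, from -0.15 to 0.07. Il6st was at 84.9 and 88.1 CPM (interval -0.14 to 0.14) and Serpina3n at 68.4 and 57.4 CPM (-0.27 to 0.22). Lifr, at 48.8 and 45.9 CPM, was the only member whose libraries lay above both controls, by 0.21 ± 0.09, with an edgeR adjusted p of 1. Its interval of 0.04 to 0.38, not adjusted for the number of genes, was the only one of the 8 that did not hold 0. For Lcn2, with 19 and 12 counts, the interval of -1.45 to 0.54 was wide.

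Between the particle preparations of set 2 the genes did differ. All 8 were higher with the reconstituted particle than with the ApoE particle, beside 20.3% of all genes passing and 11.4% passing as higher. The log2 differences were 1.37 ± 0.15 for Osmr (edgeR adjusted p = 3.29e-07), 0.93 ± 0.09 for Lifr (3.74e-08) and 0.43 ± 0.07 for Il6st (0.000101). For Stat3 the difference was 1.27 ± 0.06 (edgeR adjusted p = 6.06e-14) and for Socs3 1.78 ± 0.16 (6.59e-09). For Cd44 it was 1.17 ± 0.11 (edgeR adjusted p = 8.86e-09) and for Serpina3n 2.22 ± 0.15 (3.94e-06). Lcn2 was at least 10.9-fold higher, and its call is not read as support because of how it passed the low-count filter. This comparison shares the ApoE particle libraries with the one against control. Among the other genes, 6 of 9 reactive astrocyte genes were higher and 0 lower, and astrocyte markers summed to 1608 and 1704 CPM with the reconstituted particle.

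Whether the effect of the ApoE particle differed between the 2 sets was tested as an interaction over 17098 genes. For every member the effect was lower in set 2 than in set 1, beside 31.1% of all genes that passed and 16.4% that passed in that direction. The difference of the log2 effects was -2.29 ± 0.17 for Osmr (edgeR adjusted p = 1.98e-07), -2.84 ± 0.23 for Socs3 (3.68e-07) and -2.51 ± 0.17 for Cd44 (7.19e-08). Stat3 differed by -1.72 ± 0.10 (edgeR adjusted p = 1.84e-08), Serpina3n by -2.27 ± 0.20 (5.59e-06) and Il6st by -1.10 ± 0.11 (3.85e-06). For Lcn2 the fitted size depends on the prior count because 1 group holds 0 counts. Its call is not read as support, since it passed the low-count filter only through groups where it was higher. Lifr, which fell in both sets, differed by -0.45 ± 0.14 (edgeR adjusted p = 0.0226), and this call was lost with DESeq2 (0.0542) and without set 1 particle replicate 1 (0.124), set 2 control replicate 2 (0.112) or set 2 particle replicate 1 (0.0807). Set and any batch cannot be told apart, since each set has its own table, and the labels do not say how the particles of the sets differed.

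In the hippocampus, with 1 library per group and hence no test, 6 of the 8 genes were at least 2-fold higher with FC than without under control shRNA, and the same 6 were at least 2-fold lower with ApoE shRNA than with control shRNA under FC. Osmr, Stat3, Socs3, Cd44, Lcn2 and Serpina3n moved in this way, and Lifr and Il6st did not reach 2-fold. Both ratios share the library of control shRNA with FC, so they are not separate results. For ApoE shRNA with FC against control shRNA without FC, the median log2 ratio was -0.19 over the 6 members with at least 100 counts. Over all genes of that pair it was 0.01. Over all genes counted at least 100 times in either library of a pair, 6.65% were 2-fold or more higher with FC and 9.48% were 2-fold or more lower with ApoE shRNA. Socs3 and Lcn2 reached 100 counts only in the library of control shRNA with FC. The other direction was thus not open to them under that minimum, and their places in the count of 6 are not read as support. Intervals are exact 95% binomial and cover counting error only. Apoe, the gene aimed at by the shRNA, was at 1697 CPM without FC, 2797 CPM with FC, and 1384 CPM with FC and ApoE shRNA.

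Osmr was at 9.52 CPM without FC, 43.5 CPM with FC and 5.61 CPM with FC and ApoE shRNA. The log2 ratio with against without FC was 2.19 (interval 1.95 to 2.44), and that of ApoE against control shRNA -2.95 (-3.26 to -2.66). Osmr with ApoE shRNA thus lay below the library without FC, by -0.76 (-1.13 to -0.41). Lifr was at 66.3, 65.3 and 55.6 CPM in the same order and Il6st at 90.9, 137 and 85.5 CPM. The log2 ratio of Il6st with FC was 0.59 (0.50 to 0.68). Of the receptors, then, the oncostatin chain differed most between these libraries.

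Stat3 was at 58.1, 146 and 64.3 CPM and Socs3 at 2.26, 14.5 and 2.12 CPM in that order. The log2 ratios with FC were 1.33 (1.23 to 1.44) for Stat3 and 2.67 (2.2 to 3.2) for Socs3. The Socs3 libraries without FC and with ApoE shRNA rested on 41 and 40 counts, with a ratio of -0.09 (-0.76 to 0.57) between them. Cd44 was at 7.21, 23.4 and 6.46 CPM and Serpina3n at 61.7, 282 and 53.0 CPM. With FC their log2 ratios were 1.69 (1.41 to 1.99) and 2.19 (2.1 to 2.29), and with ApoE against control shRNA -1.85 (-2.16 to -1.56) and -2.41 (-2.51 to -2.31). Lcn2 rested on 2 counts without FC, 169 with FC and 11 with ApoE shRNA. Its ratio with against without FC was 69.2 (23.5 to 718), and the log2 ratio of ApoE shRNA with FC against control shRNA without FC was 2.14 (0.21 to 5.62), the highest of the 8 in that pair.

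**Figure D4:**
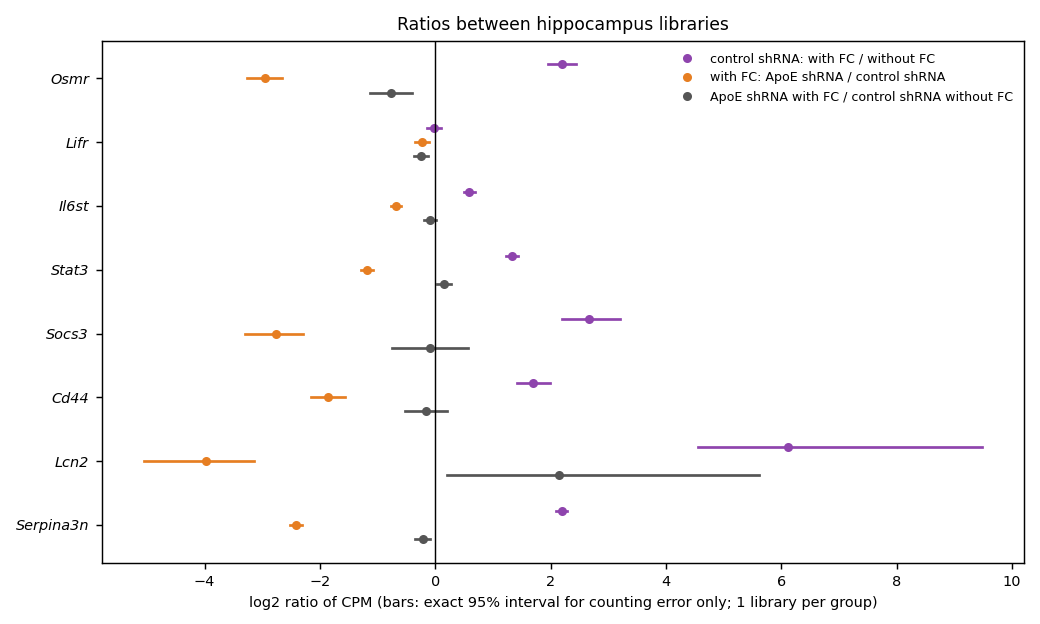
Log2 ratio of CPM for each gene between pairs of the 3 hippocampus libraries; points are ratios and bars exact 95% intervals for counting error only, with 1 library per group. Osmr reads 2.19 with FC and -2.95 with ApoE shRNA, and Lifr stays between -0.25 and -0.02 in the 3 pairs.

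Among the other genes of the route in the hippocampus, 4 of 9 kinases and STATs, 7 of 16 STAT3-induced genes and 7 of 7 reactive astrocyte genes with at least 100 counts were 2-fold or more higher with FC and 0 were lower. Of these, Icam1, Pim1, Cxcl10 and Aspg reached 100 counts only in the library of control shRNA with FC. They could not have been counted as lower, so their places in these counts are not read as support. Gfap was at 570 CPM without FC, 2117 CPM with FC and 457 CPM with FC and ApoE shRNA. The astrocyte marker sums below contain Gfap, so they are not a separate reading. Osm had 3, 19 and 1 counts and Lif 39, 38 and 22 counts in that order. The microglia markers summed to 422, 1730 and 317 CPM, with 9 of 11 higher by 2-fold or more with FC, the astrocyte markers to 6229, 8283 and 5072 CPM, with 1 of 10 higher, and the neuron markers to 7705, 6541 and 7644 CPM. The part of these cells in the members' values was not tested.

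Across the 10 groups, the order of the levels differed between members. Osmr was highest in the set 1 ApoE particle group (49.1 ± 1.9 CPM, SD, n = 2), followed by the hippocampus with FC (43.5 CPM) and ADM (34.1 ± 4.8 CPM), and lowest in the ADM control (4.34 ± 1.25 CPM). The Osmr ranges of the reconstituted particle (16.7 ± 1.2 CPM) and the set 2 control (15.2 ± 1.7 CPM) overlapped, and no other neighbours in its order did. Socs3 and Cd44 were highest with ADM, at 26.0 ± 3.2 and 109 ± 2 CPM, and Stat3 was too, at 201 ± 5 CPM. Socs3 was alike in the ADM control, the set 1 control and the set 2 ApoE particle group (4.94 ± 0.42, 4.91 ± 0.24 and 4.83 ± 0.25 CPM, ranges overlapping). The set 2 control was higher in Socs3 than the set 1 particle group, at 16.1 ± 1.1 against 11.1 ± 0.2 CPM, but these come from separate tables that were not tested against each other.

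Per length of exon, the shared chain was the most abundant of the 3 member receptor transcripts. In CPM per kb, Il6st stood at 4.32 to 18.6 over the 17 libraries, with the lowest in ADM control replicate 1 and the highest in set 1 particle replicate 2. In all libraries but the 2 of the set 1 ApoE particle group, the Osmr level per kb was below that of Lifr. In those 2 it was above, at 3.95 and 4.16 for Osmr against 3.25 and 2.92 CPM per kb for Lifr. In the ADM controls Osmr was at 0.285 and 0.431 CPM per kb and Lifr at 3.86 and 3.83 CPM per kb, and with ADM they were at 2.53 and 3.09 and at 6.40 and 6.43 CPM per kb.

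**Figure D5:**
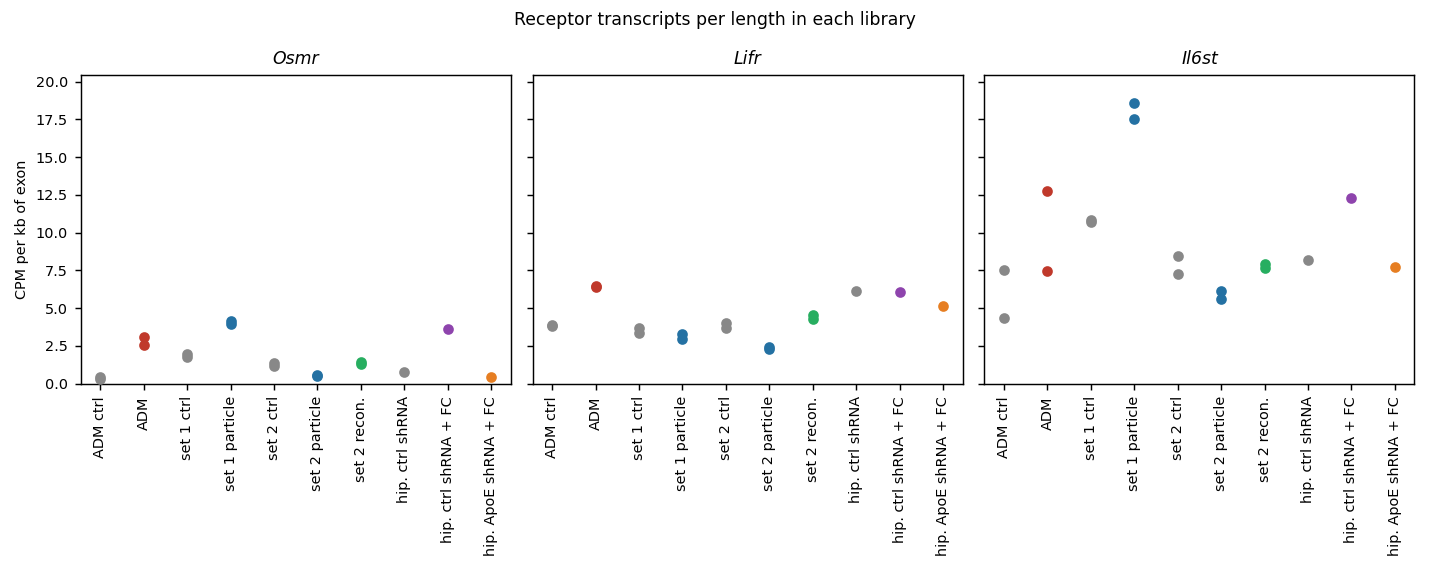
CPM per kb of exon of Osmr, Lifr and Il6st in each of the 17 libraries by group; each point is 1 library. Osmr exceeds Lifr in the set 1 ApoE particle libraries only, and Il6st ranges from 4.32 to 18.6.

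The genes whose level ran most like that of Osmr over the 14 neuron libraries were found by Pearson's r of log2(CPM + 1), among 11812 genes with a mean of at least 5 CPM. They were Tmem176b (r = 0.976), Sdc4 (r = 0.962), which encodes the heparan sulfate proteoglycan syndecan-4, and Net1 (r = 0.950). Tmem176b had 4.46 and 8.31 CPM in the ADM controls and 21.1 and 34.5 CPM with ADM. Of the members, Il6st had the highest r with Osmr (0.887), then Stat3 (0.862), Serpina3n (0.793) and Cd44 (0.740), while Socs3 (0.585), Lcn2 (0.417) and Lifr (0.342) were lower. These values describe 14 libraries that share 3 tables and their marker differences, and they were not tested.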

How the data were processed

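Per the submitters' processing notes, the tools were Bowtie2 2.2.3, HISAT2 2.1.0 and HTSeq 0.6.0 with build mm10. Their settings and roles are not stated there. The authors deposited unnormalized counts of reads per gene. In set 2, 1489 genes held no value for some libraries and were not tested. Levels are counts divided by the library total (CPM), and per-length levels use GENCODE exon lengths.

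Each neuron comparison was fitted over all genes with edgeR 4.0.16 in R 4.3.3 (filterByExpr, TMM scaling, robust quasi-likelihood F test, Benjamini-Hochberg adjustment, threshold 0.05). The standard error is the log2 fold change divided by the root of F. The 3 groups of set 2 shared 1 fit. DESeq2 1.42.0, scaling by library totals, no filter, a replicate block and leaving out each library were the alternatives. The test code was checked on simulated counts. Hippocampus ratios used a prior of 0.5 counts.

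The members, the lists and their markers were chosen with earlier results of these data known. Named genes are all 8 members, at most 3 others per list and comparison (lowest adjusted p among those called, or for ADM and hippocampus the largest change at 5 CPM or 100 counts and more), and the 3 genes most like Osmr. Counts of Osm and Il6, and the hippocampus values of Lif and Gfap, were added after their values were seen. Not every gene picked by the rule is reported here.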

Additional observations from a re-analysis of the deposited data

Results flagged for a closer look

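For each of the 8 genes the ApoE particle effect differed between set 2 and set 1 in the interaction test (edgeR, adjusted over 17098 genes). The log2 effect in set 2 minus that in set 1 was -2.29 for Osmr, -0.45 for Lifr, -1.10 for Il6st, -1.72 for Stat3, -2.84 for Socs3, -2.51 for Cd44 and -2.27 for Serpina3n. For Lcn2 the fitted difference was -8.38, a value that depends on the prior count because both set 2 particle libraries held 0 counts. The Lcn2 call is not read as support, since Lcn2 passed the low-count filter only through groups where it was higher. Each group held 2 libraries, and 31.1% of all genes passed the same test.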

How the results depend on the processing

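No value that passed its test changed direction under any alternative run. With ADM, edgeR called 0 genes, against 333 with DESeq2, 128 without the low-count filter, 465 with the replicate block, and 0 to 641 when a library was left out (641 without ADM replicate 1, 47 without ADM replicate 2). For the ApoE particle, leaving out a library gave 3521 to 7610 calls in set 1 against 5993 (fewest without particle replicate 2), with 4 to 6 members called, and 2297 to 3836 in set 2 against 3617 (fewest without control replicate 1). Between the sets it gave 3492 to 6245 against 5320 (fewest without set 1 particle replicate 2), with 7 to 8 members called. The reconstituted particle against control gave 8 calls without the filter, 1 with the block and 1 to 4 with a library left out. Scaling by library totals raised the share of rises among set 1 calls from 52% to 65.6% and lowered that of the difference between sets from 47.4% to 38.5%. Replicate numbers were not taken to pair samples: with 2 pairs, the replicate differences correlated at 0.551 in the ADM table, 0.0385 in set 1 and -0.107 to 0.0512 in set 2, and the block changed no member's call where members were tested, which was not so with ADM. Counts of other list genes stayed within 1.5 times in 804 of 900 recomputed values, and 48 of 760 recomputed values of named list genes lost their call. Only 2 libraries per group limit the precision, and with the 0 to 25 counts of Lcn2 in set 2 only its bound can be read.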

Other observations

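Partners of CD44 and lipocalin 2 outside the route moved in some of the same libraries. In set 1, Lrp2 (megalin, an endocytic receptor that can take up lipocalin 2) went from 24.6 ± 3.4 CPM (SD, n = 2) to 129 ± 19 CPM with the ApoE particle, a log2 rise of 2.29 ± 0.12 (edgeR adjusted p = 9.55e-07), and Slc22a17, another lipocalin 2 receptor, went from 427 ± 38 to 347 ± 13 CPM (log2 -0.40 ± 0.09, edgeR adjusted p = 0.00625). None of the 3 genes of that list passed in set 2 against control. Hmmr, a hyaluronan-binding protein also made by dividing cells, rose in set 1 from 6.72 ± 0.24 to 27.9 ± 3.1 CPM (log2 1.95 ± 0.15, edgeR adjusted p = 4.55e-06), in libraries where 6 of 6 proliferation markers rose.

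In the hippocampus, Cd74, the invariant chain of class II antigen presentation and a partner of CD44, was at 4.79 CPM without FC, 1107 CPM with FC and 1.06 CPM with FC and ApoE shRNA. Spp1 was at 5.34, 37.0 and 4.87 CPM in that order. Serpina3f, a neighbour of Serpina3n, had 3, 279 and 1 counts.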
